A study of Mus musculus with 4 samples.

Results

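E proteins are basic helix-loop-helix transcription factors that bind E-box DNA as dimers, and Id proteins are their inhibitors. Of the genes in the count table for T8 leukemia cells, 6 were examined here: the E protein genes *Tcf3*, *Tcf4* and *Tcf12*, and the inhibitor genes *Id1*, *Id2* and *Id3*. They were listed by name as a gene family and matched to the table by Ensembl identifier, and all 6 were found among 55359 identifiers. T8 is a clonal pre-B cell acute lymphoblastic leukemia line established from the primary leukemia of a mouse without *Irf4* (*Irf4*-/-), so that both groups lack functional endogenous IRF4. Cells were transduced with a retrovirus coding for GFP alone (EV-RV) or for GFP plus IRF4 (IRF4-RV), and bulk RNA was sequenced 24 h later from 2 libraries per group, described as biological replicates. The paper states that the cells compared were those still viable, and that cells given IRF4 were lost over time with apoptosis. Whether survival of a part of the cells enters the differences below was not tested. The titles and the tissue entry name T8, whereas the protocol text names T11, and which T8 subline was used, and whether GFP+ cells were sorted, is not given in the sources used here.

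An Id protein has the helix-loop-helix that pairs with an E protein but no basic region, so the pair does not bind DNA. E proteins are needed to start the B lineage and to open and recombine the immunoglobulin genes, and they occupy light chain enhancers together with IRF4 and its ETS partners. The balance of E proteins and Id proteins is known to set E protein activity in lymphocytes.

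The libraries held between 31230223 and 37817752 counts. Values are CPM, counts scaled to library size and TMM factor, and a floor of 3 counts lay between 0.0823 and 0.0951 CPM. This floor covers counting error only. The 14637 genes tested were fitted by the quasi-likelihood method of edgeR, p-values were adjusted after Benjamini and Hochberg, and genes with an adjusted p under 0.1 were called. *Irf4* itself rose from 241 ± 0.557 to 2650 ± 234 CPM (SD, n = 2 each), as the labels of the groups require, and reads of the vector and of the disrupted locus were not separated. Of 14 B lineage markers, 13 were tested, and together they held 7910 to 8620 CPM in each library. The exception was *Rag1*, a recombinase gene with 0 or 1 count per library. Of the 13 tested markers, 3 were called higher and 4 lower (53.8%, against 29.7% of all genes tested). The sum thus does not show the changes of single markers. Markers of T and NK cells summed to 2.00 to 2.47 CPM and those of macrophages and dendritic cells to 1.46 to 2.31 CPM. In bulk RNA, fewer cells of a type and less RNA per cell cannot be told apart.

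The library IRF4-RV replicate 2 stood apart in stromal genes. The summed level of 8 stromal markers, collagens and *Cxcl12* among them, was 47.5 and 89.2 CPM in the EV-RV libraries, 47.0 CPM in IRF4-RV replicate 1 and 221 CPM in IRF4-RV replicate 2. Of these 8 markers 6 were tested and 0 were called by edgeR (0 at an unadjusted p under 0.05, and 0 by DESeq2). The IRF4-RV libraries differed widely (*Col1a2*, 17.4 and 86.6 CPM), so the lack of a call says little about IRF4-RV replicate 2. *Dcn* and *Lum* had between 0 and 2 counts in every library. The source of the stromal transcripts was not tested. *Id* genes are active in stromal cells, and the fold change of each *Id* gene is given below also without this library.

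All 6 members passed the filter on low counts, and 3 of them were called. *Tcf4* and *Id2* were higher and *Id3* was lower with IRF4-RV, while *Tcf3*, *Tcf12* and *Id1* were not called. Among all genes tested 29.7% were called, 16.0% higher and 13.7% lower, so that a share of 3 in 6 among so few genes cannot be read as particular to the family. The called *Id* genes went in opposite directions, and *Tcf4* was the one E protein gene called.

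**Figure D1:**
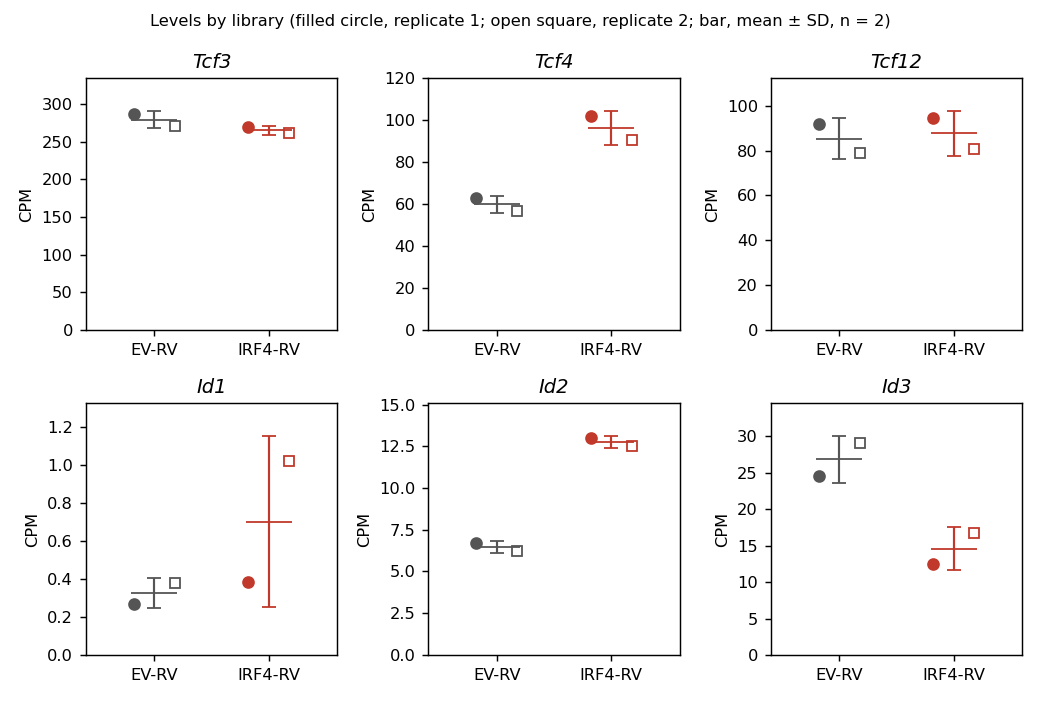
Level of each member in each library in CPM (vertical axes, each starting at 0), for EV-RV and IRF4-RV, with replicate 1 as a filled circle, replicate 2 as an open square, and the mean ± SD of 2 libraries as a bar. *Tcf4* and *Id2* lie higher and *Id3* lies lower in both IRF4-RV libraries, and the *Id1* mean of IRF4-RV rests on the value of 1.02 CPM in replicate 2.

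The 250 bases before the RefSeq start of each gene (GRCm38.p6) were searched on both strands for the E box CANNTG, for its variant CAGGTG, for the repeat GAAANNGAAA that IRF dimers bind, and for the composite GGAANNGAAA of ETS and IRF factors. Entries for *Tcf3*, *Tcf12*, *Id2* and *Id3* were matched. The windows of *Id2* (25096093 to 25096342), of *Id3* (136143572 to 136143821) and of *Tcf12* starts 2 and 3 lie inside the annotated genes. Those of *Id3* and of *Tcf12* start 3 are covered by annotated exons over their whole length. These windows are therefore not sequence upstream of the whole gene. Over all 32851 promoters of the table, 66.2% held the E box, 17.2% held CAGGTG (which also counts as an E box), 2.98% held the IRF repeat and 2.30% the composite. *Id3* had none of these letters, *Id2* and *Tcf3* had 1 E box each, and neither the composite nor CAGGTG was found at any of them. The windows at the 3 starts of *Tcf12* held 1 E box at each of the first 2, and 1 IRF repeat, GAAATTGAAA, 99 bases before the third. A match describes letters and is not evidence of binding.

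The stretches of these windows outside annotated exons are shown for *Id2*, the inhibitor that rose, and for *Tcf3*, the most abundant E protein gene, whose level was not called different. Both are given 5′ to 3′ on the strand of the gene, and capitals mark the E box. The *Id2* stretch is chr12:25096254-25096342 and the *Tcf3* stretch is chr10:80433648-80433885, both on the minus strand of GRCm38.p6. The *Id2* stretch lies inside the annotated gene, whereas the *Tcf3* stretch lies upstream of its gene. In *Id2* the box CAGCTG begins 196 bases before the start, and in *Tcf3* the box CACTTG begins 54 bases before it.
Id2: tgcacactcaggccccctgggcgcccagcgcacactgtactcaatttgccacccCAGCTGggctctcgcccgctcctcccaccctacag
Tcf3: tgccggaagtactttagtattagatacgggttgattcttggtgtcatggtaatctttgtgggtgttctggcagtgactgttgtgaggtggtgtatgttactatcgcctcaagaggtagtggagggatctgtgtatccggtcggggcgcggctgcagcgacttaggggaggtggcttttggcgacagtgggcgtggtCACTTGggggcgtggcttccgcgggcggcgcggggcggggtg

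*Tcf3* encodes the E2A proteins, the E proteins on which B lineage commitment depends most. On GRCm38 it lies on the minus strand of chromosome 10 from 80409514 to 80433647. Its level was 287 and 271 CPM in the EV-RV libraries and 269 and 261 CPM in the IRF4-RV libraries. The IRF4-RV libraries were the lower ones, with means of 279 ± 11.9 CPM for EV-RV and 265 ± 5.82 CPM for IRF4-RV (SD, n = 2 each). The means differed by more than either SD, but by less than the gap between the EV-RV libraries. On the log2 scale the difference was -0.07 ± 0.0723 (SE; edgeR adjusted p = 0.527), its 95% interval ran from -0.24 to 0.10, and alternatives gave -0.16 to -0.04. A drop or rise of *Tcf3* as large as that of *Tcf4* or *Id2* lay outside this interval.

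*Tcf4* encodes the E protein that is also known as a master factor of plasmacytoid dendritic cells. It spans 69343356 to 69689079 on the plus strand of chromosome 18. EV-RV cells gave 2102 and 1795 counts, and IRF4-RV cells gave 3467 and 3303. These were equal to 62.9 and 56.9 CPM with EV-RV and to 102 and 90.6 CPM with IRF4-RV. Both IRF4-RV libraries lay above both EV-RV libraries, and the means were 59.9 ± 4.28 and 96.5 ± 8.24 CPM (SD, n = 2 each). The rise was 1.61-fold, or 0.69 ± 0.0947 as log2 (SE; edgeR adjusted p = 0.00182). Without any 1 of the libraries the log2 value stayed between 0.58 and 0.78. The plasmacytoid markers *Siglech* and *Klk1* had 0 counts in every library, and *Ccr9* had between 1 and 3.

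*Tcf12* encodes HEB, which forms heterodimers with E2A and is better known for its part in T cell development. It lies on the minus strand of chromosome 9 from 71842688 to 72111871. Its level was 91.9 and 78.9 CPM with EV-RV and 94.7 and 80.7 CPM with IRF4-RV. The groups overlapped, and the difference between replicates exceeded that between groups. The log2 difference was 0.04 ± 0.109 (SE; edgeR adjusted p = 0.845), within an interval (95%) of -0.22 to 0.29, and its sign depended on the scaling and on the libraries used.

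Within a library, the ratio of *Tcf3* to *Tcf4* counts does not depend on scaling between libraries. Its log2 was 2.19 and 2.25 in EV-RV cells against 1.40 and 1.53 in IRF4-RV cells, which is a 1.69-fold lower ratio. The corresponding ratio of *Tcf12* to *Tcf4* fell by 0.65 on the log2 scale, and that of *Tcf3* to *Tcf12* differed by -0.11, about as much as its SD of 0.132 among the IRF4-RV libraries. Thus the changed ratios were those that involve *Tcf4*. Counts per gene do not separate the isoforms of these genes, of which GENCODE M21 annotates 14 transcripts for *Tcf3*, 62 for *Tcf4* and 21 for *Tcf12*.

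Turning to the inhibitors, *Id3*, a gene induced early by antigen receptor signals in lymphocytes, was the most abundant *Id* gene in EV-RV cells. It lies on the plus strand of chromosome 4 from 136143497 to 136145755. EV-RV cells gave 822 and 918 counts, and IRF4-RV cells gave 423 and 607. Its level was 24.6 and 29.1 CPM with EV-RV against 12.5 and 16.7 CPM with IRF4-RV, without overlap. The mean dropped from 26.9 ± 3.17 to 14.6 ± 2.95 CPM (SD, n = 2 each), to 0.543 of the EV-RV level. As log2 this was -0.88 ± 0.153 (SE; edgeR adjusted p = 0.00537). Replicate 2 was the higher library in each group, as it was for the stromal markers. Without IRF4-RV replicate 2 the log2 fold change of *Id3* was -1.10 and without IRF4-RV replicate 1 it was -0.71. The fall was thus seen with either IRF4-RV library.

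*Id2*, which natural killer cells and dendritic cells require, changed in the opposite direction. It lies on the minus strand of chromosome 12 from 25093799 to 25097140. Counts of 224 and 196 in EV-RV cells compared with 441 and 455 in IRF4-RV cells. In CPM these were 6.71 and 6.21 against 13.0 and 12.5, and replicates of a group differed far less than the groups did. The rise of the mean from 6.46 ± 0.351 to 12.7 ± 0.371 CPM (SD, n = 2 each) was 1.97-fold. This is a log2 value of 0.98 ± 0.121 (SE; edgeR adjusted p = 0.00112), and without IRF4-RV replicate 2 it was 1.01. Of all genes tested, 1313 had a larger absolute log2 fold change. Of the natural killer cell markers, *Ncr1*, *Klrk1* and *Gzmb* had 0 counts in every library, while *Klrb1c* had 33 to 54 and *Prf1* 24 to 26, and neither was called. Some markers of such cells were higher with IRF4-RV at very low counts. *Gzma* had 0 and 1 counts against 5 and 7, and *Xcr1*, a dendritic cell marker, had 1 and 2 against 8 and 15. Among other dendritic cell markers, *Itgax* had 0 counts in every library and *Clec9a* had 0 or 1. *Zbtb46* had 27 and 24 against 30 and 37 and was not called. *Gzma* and *Xcr1* were too low to be tested, and the part of such cells in the *Id2* value was not tested.

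**Figure D2:**
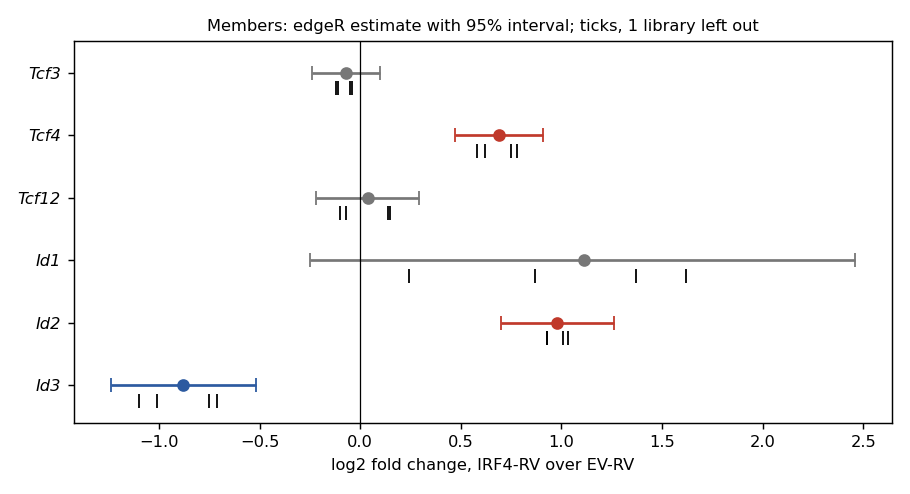
The log2 fold change of IRF4-RV over EV-RV (horizontal axis) for each member, with the edgeR estimate as a point (red, called higher; blue, called lower; grey, not called) and its 95% interval as a bar, and ticks for the estimates with 1 library left out. The intervals of *Tcf4*, *Id2* and *Id3* do not include 0, and the ticks of *Id1* spread from 0.24 to 1.62.

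*Id1*, a gene prominent in stem cells, endothelium and fibroblasts, was near the limit of detection. It lies on the plus strand of chromosome 2 from 152736251 to 152737410. Only 9 and 12 counts were found in EV-RV cells, against 13 and 37 in IRF4-RV cells. In CPM these were 0.270 and 0.380 against 0.384 and 1.02, so that IRF4-RV replicate 1 was level with EV-RV replicate 2. The estimate of 1.11 ± 0.584 on the log2 scale (SE; edgeR adjusted p = 0.225) had a 95% interval from -0.25 to 2.46. It was 0.24 without IRF4-RV replicate 2 and 1.62 without IRF4-RV replicate 1. The library high in *Id1* was the library high in stromal markers, and the part of stromal RNA in this value was not tested. *Id4*, the remaining gene of the family, had 0 to 3 counts per library and was not tested.

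**Figure D3:**
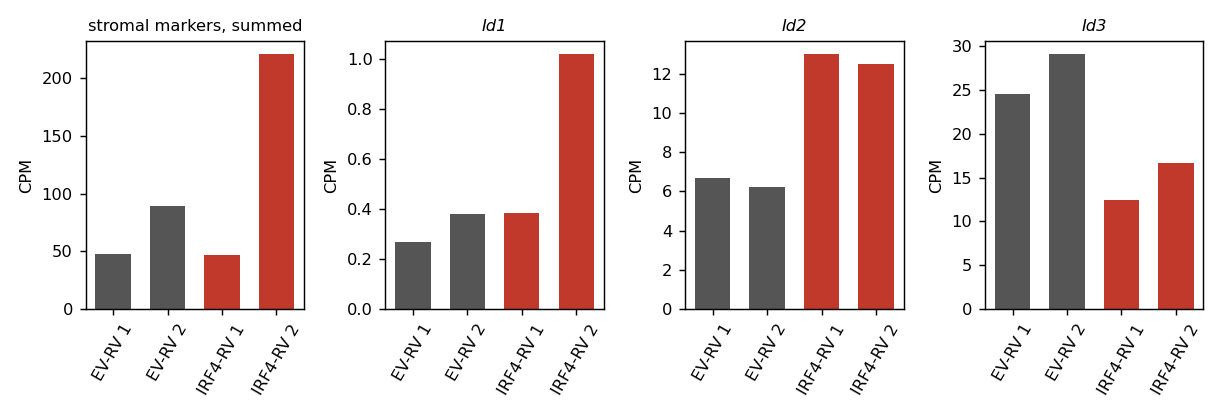
CPM in each library (vertical axes, each starting at 0) for the sum of 8 stromal markers and for *Id1*, *Id2* and *Id3*, with EV-RV in grey and IRF4-RV in red. IRF4-RV replicate 2 is highest for the stromal sum (221 CPM) and for *Id1* (1.02 CPM), while *Id2* is alike in both IRF4-RV libraries and *Id3* is below both EV-RV libraries in each.

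The opposite changes of *Id2* and *Id3* altered the makeup of the *Id* transcripts. The log2 ratio of *Id3* to *Id2* counts was 1.88 and 2.23 in the EV-RV libraries and -0.06 and 0.42 in the IRF4-RV libraries. The ratio was therefore 3.66-fold lower with IRF4-RV, and this did not rest on a single library, since the log2 difference was -2.11 without IRF4-RV replicate 2 and -1.64 without IRF4-RV replicate 1.

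For levels to be compared between genes, CPM were divided by the kilobases of merged annotated exons. On this scale of CPM per kilobase, *Tcf3* was the most abundant member, at percentile 93.0 of 14578 tested genes with a known length in EV-RV cells and 92.7 in IRF4-RV cells. *Id3* moved from percentile 75.0 to 62.5 and *Id2* from 39.4 to 52.7. *Tcf12* was at 54.3 and 54.4, *Tcf4* moved from 36.0 to 44.2, and *Id1* was at 10.7 and 17.1. These percentiles depend on the length used. Merged exons held 27382 bases for *Tcf4* and 15529 for *Tcf12*, against 8577 and 6299 in their longest transcripts. Percentiles with the longest transcript were not computed.

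Among the E proteins, *Tcf3* accounted for 90.0 ± 0.494% of the summed CPM per kilobase with EV-RV and for 87.8 ± 0.866% with IRF4-RV (SD, n = 2 each). *Tcf4* held 2.85 ± 0.0668% and 4.70 ± 0.252%, and *Tcf12* held 7.15 ± 0.427% and 7.54 ± 0.614%. The share of *Tcf4* was thus higher in both IRF4-RV libraries, and its absolute size depends on the length used. With the longest transcript of each gene in place of merged exons it was 6.07 ± 0.118% and 9.76 ± 0.452%. Among the inhibitors, *Id3* held 83.6 ± 1.98% with EV-RV and 58.0 ± 4% with IRF4-RV. *Id2* held 14.9 ± 2.21% and 37.9 ± 6.19%, and the shares of both genes did not overlap between groups.

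**Figure D4:**
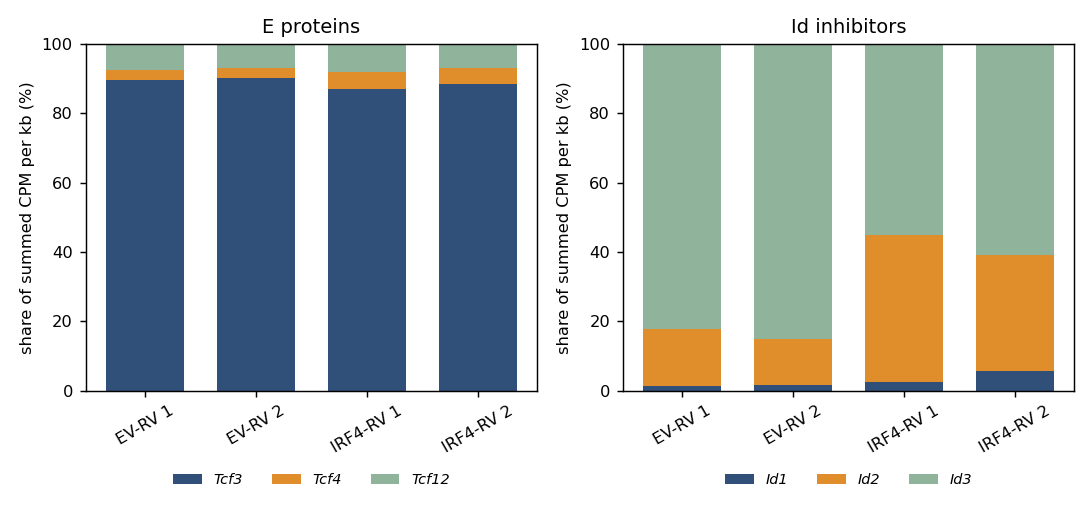
Share of each gene in the summed CPM per kilobase of its family (vertical axes, in percent), for the E proteins at left and the *Id* genes at right, with 1 bar per library. *Tcf3* takes 87.1 to 90.3% of the E protein bar in every library, and *Id2* widens from 16.4 and 13.3% with EV-RV to 42.2 and 33.5% with IRF4-RV.

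The summed level of the 3 E protein genes was 79.4 and 74.1 CPM per kilobase in EV-RV cells, against 76.5 and 73.2 in IRF4-RV cells. That of the 3 *Id* genes was 16.7 and 19.1 against 12.6 and 15.3. The ratio of E protein to *Id* transcripts was 4.74 and 3.88 in the EV-RV libraries and 6.06 and 4.78 in the IRF4-RV libraries. The groups were separated only narrowly, by 4.74 against 4.78. On the log2 scale the ratio was 2.10 ± 0.206 with EV-RV and 2.43 ± 0.241 with IRF4-RV (SD, n = 2 each). The difference of 0.33 was no larger than the gap between the IRF4-RV replicates, at 2.60 and 2.26. With 2 libraries per group an exact permutation test cannot give a two-sided p under 0.333, so no test was made of this ratio.

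Other genes of the pathway were taken from lists compiled by role, with earlier results of these data known. Their counts of called genes stand beside 29.7% of all genes tested, 16.0% higher and 13.7% lower. Of 21 tissue-restricted bHLH factors that pair with E proteins, 19 were too low to be tested and both of the others were called. *Lyl1*, a leukemia-associated bHLH factor of blood cells, fell by 0.51 on the log2 scale (edgeR adjusted p = 0.00225), from 166 and 169 to 114 and 121 CPM. *Bhlha15*, which encodes the secretory cell factor MIST1, rose by 0.95 (edgeR adjusted p = 0.000593), from 12.4 and 13.2 to 26 and 23.6 CPM. *Tal1* had 9 counts or fewer in every library.

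Of 9 cofactors that act with E proteins, directly or as part of a complex, 8 were tested, and 3 were higher and 1 was lower. Their median log2 fold change was 0.30. The largest rise was that of *Cbfa2t3*, a corepressor of the ETO family (log2 fold change 0.87, edgeR adjusted p = 0.0154). *Lmo2*, the LIM adaptor that links bHLH factors to other factors, rose by 0.52 (edgeR adjusted p = 0.0106), and the acetyltransferase genes *Kat2b* and *Kat2a* changed by 0.44 and -0.34. *Ldb1*, the most abundant of the list, was at 110, 109, 103 and 101 CPM and was not called.

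Among 16 other factors that bind E-box sequences, 12 were tested, 3 were higher and 2 were lower. *Myc* fell by 1.09 on the log2 scale (edgeR adjusted p = 0.000133), from 279 and 283 to 142 and 123 CPM. *Max*, its partner, rose by 0.72, as did *Usf1*, and *Zeb2* rose by 0.43. *Bhlhe40* fell by 0.54. The median of the 12 genes was 0.07. Without IRF4-RV replicate 1, 5 genes of this list were called higher.

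Of 16 genes that act upstream of the *Id* genes or on Id proteins, 13 were tested, 3 were higher and 2 were lower. *Egr1*, an immediate early factor that can induce *Id3*, was lower, with a log2 fold change of -0.71 (edgeR adjusted p = 0.00549), and *Egr2* was higher, with 0.66 (edgeR adjusted p = 0.0494). *Usp1*, which removes ubiquitin from Id proteins and was the most abundant gene of the list, fell by 0.35 (edgeR adjusted p = 0.0136). In the BMP-SMAD arm, the inhibitory *Smad7* and the receptor *Bmpr1a* were higher, by 0.50 and 0.28, while *Smad4* and *Smad5* were not called, and *Smad1* had 6 counts or fewer in every library. Without EV-RV replicate 1, or without IRF4-RV replicate 1, only 1 gene of this list was called higher. The median of the list was 0.13.

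Of 18 early B lineage genes that E proteins are known to regulate, 16 were tested, 4 were higher and 5 were lower, and their median log2 fold change was -0.05, against 0.0073 for all genes tested. The largest rise was that of *Foxo1*, a factor that E proteins induce in B cell precursors (log2 fold change 1.10, edgeR adjusted p = 0.000144). The largest fall was that of *Dntt*, the template-independent polymerase of V(D)J joining, which dropped from 86 and 90 counts to 34 and 31 (log2 fold change -1.55, edgeR adjusted p = 0.00575). The other genes called higher were *Pou2af1*, *Vpreb3* and *Cxcr4*, and the others called lower were *Igll1*, *Vpreb1*, *Vpreb2* and *Il7r*. *Cd79a*, the most abundant of the list over all 4 libraries, differed by -0.01, although in EV-RV cells *Igll1* was higher (953 against 915 CPM). *Ebf1* and *Pax5*, the factors that act beside E proteins to fix the B lineage, had log2 fold changes of -0.24 and -0.39 and were not called (edgeR adjusted p = 0.172 and 0.116). With the replicate number as a block both were called lower, so the lack of a call depends on the model. The alternatives called 4 to 7 genes of the list lower. The genes of this list thus moved in both directions.

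All 10 tested genes of 12 light chain enhancer factors and transcripts were called, 8 higher and 2 lower, with a median log2 fold change of 0.69. Among all genes tested 29.7% were called, 16.0% higher. DESeq2 called 7 of the list higher and 2 lower. This list was chosen with earlier results of these data known, and it includes *Irf4*, which the vector supplies. *Igkc*, the constant region of the kappa light chain, rose by 1.35, and *Ikzf3* and *Ikzf1*, which encode Aiolos and Ikaros, rose by 0.82 and 0.55. *Mef2c* rose by 1.31 and *Mef2d* by 0.50. *Iglc3*, a lambda constant region, had 1 and 2 counts in EV-RV cells and 14 and 13 in IRF4-RV cells. The genes called lower were *Spi1*, which encodes the ETS factor PU.1, and *Irf8*, with log2 fold changes of -0.45 and -0.32, while *Spib*, which encodes the related ETS factor, rose by 0.23 (edgeR adjusted p = 0.0915). Without IRF4-RV replicate 2, 1 of the genes was called lower. Of the 3 E protein genes, *Tcf4* was the one called in the same comparison.

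**Figure D5:**
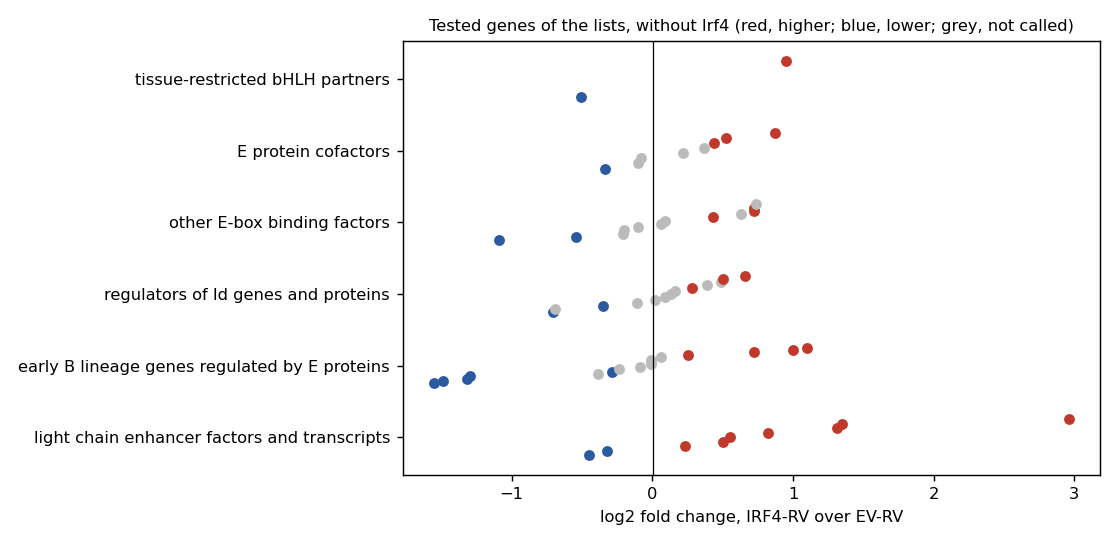
The log2 fold change of IRF4-RV over EV-RV (horizontal axis) for the tested genes of each list (rows), 1 point per gene, red for called higher, blue for called lower and grey for not called, with *Irf4* left out and the vertical line at the median of all genes tested. Points of the early B lineage list reach from -1.55 to 1.10, on both sides of the line, and those of the light chain list lie mostly to its right.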

How the data were processed

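The authors used STAR (2.4.0j) to align RNAseq reads to the mouse genome GRCm38 and featureCounts for counts per gene, according to the paper's methods and the submitters' processing notes. The authors deposited raw counts, in whole numbers and not normalized. How strand and multiply aligned reads were handled is not given in the sources used here. Of 55359 identifiers 52083 were matched to GENCODE M21 for symbols, positions and exon lengths.

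Genes that passed filterByExpr were tested in R 4.3.3 with edgeR 4.0.16 (TMM factors, quasi-likelihood F test, Benjamini-Hochberg adjustment, FDR 0.1 as in the paper). Standard errors are the log2 fold change over the square root of F. The procedure was tested on simulated data, in which a larger share of the calls was false than the FDR cutoff allows. That share was not split by adjusted p. Far fewer genes were changed in the simulation than were called here, and the false share depends on that number. Its size therefore does not carry over to these data. The FDR of all calls, near the cutoff or not, may still be higher than stated. The members and the gene lists were chosen with earlier results of these data known. From each list, the called genes with the largest rise and fall and the most abundant gene are given, and others by name. For each called member, the 2 genes nearest in log2 CPM profile were taken. Whether replicates came from separate cultures is not stated beyond the series' wording, so p-values measure the spread between these libraries.

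Alternatives were DESeq2 1.42.0, the size factors of DESeq2 within edgeR, scaling by library size only, a minimum of 1 count or a mean of at least 50 counts as filter, the replicate block, an FDR of 0.05, longest transcripts in place of merged exons, and leaving out each library. Promoter sequences were from RefSeq (GRCm38.p6), with 4 of the 6 members matched. Protein sequences were not used here, and the planned protein comparison was not made.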

Additional observations from a re-analysis of the deposited data

How the results depend on the processing

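The calls of *Tcf4*, *Id2* and *Id3*, and the lack of a call for *Tcf3* and *Tcf12*, were the same in all alternatives run, and 3347 to 6394 of all genes were called. With library size only, which moved the median of all genes to -0.083, 37.8% of all calls were higher, against 53.8%, and the log2 fold change of *Tcf12* was -0.05. Leaving out single libraries gave -0.10 to 0.15 for *Tcf12* and, for *Id1*, 0.24 to 1.62, and *Id1* was called without IRF4-RV replicate 1 only (4 members called, 3 of them higher). Such fits leave 1 library in a group, which is assumed to vary like the other group. *Id1* was not tested with a mean of at least 50 counts. The replicate number pairs the libraries by label alone (correlation of deviations across genes, r = 0.26). With it as a block, 6394 genes were called, among them all 4349, and the same members, with log2 fold changes of 0.69 for *Tcf4*, 0.98 for *Id2* and -0.89 for *Id3*. The block also called *Ebf1* and *Pax5* lower (edgeR adjusted p = 0.000829 and 9.38e-11), and 4 of the other E-box factors lower, against 2. On simulated data a larger share of the calls was false with the block than without it. The simulated counts held no effect of the replicate number, so they cannot tell how the block does where such an effect exists. Whether the block suits these libraries was not tested. The calls that only the block made are left as uncertain, however small their adjusted p.

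With longest transcripts, the differences in family share (IRF4-RV minus EV-RV, percentage points) were -4 for *Tcf3*, against -2.20, and 3.69 for *Tcf4*, against 1.85, because longer merged exons weigh *Tcf4* down. For *Tcf12* this difference was 0.39, and -0.05 to 0.82 with 1 library left out (-0.05 without IRF4-RV replicate 1). The difference in the log2 ratio of E protein to *Id* levels was 0.41 with longest transcripts and 0.16 to 0.50 with 1 library left out. Of 286 counts of list genes called, 274 were within 1.5 times the count reported. Several reported counts were 0, and 0 against 0 was taken as unchanged. Part of this share therefore comes from lists with few tested genes. The stromal markers moved most, with 6 called higher without IRF4-RV replicate 1, 3 called lower without IRF4-RV replicate 2, and 5 called higher with the block. Depth limits *Id1* and *Id4*, which had at most 37 counts.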

Other observations

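Several low E-box binding factors shared the pattern of *Id1* over the libraries, and they were picked out after their values were seen. *Snai2*, a repressor of mesenchymal cells, had 6 and 5 counts in EV-RV cells against 2 and 26 in IRF4-RV cells. For *Snai1* the counts were 37 and 37 against 35 and 91, and for *Tfe3* they were 7 and 12 against 8 and 27. Each was highest in IRF4-RV replicate 2, the library with 221 CPM of stromal markers, and the part of stromal RNA in these values was not tested.

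The genes with the most similar profiles over the 4 libraries, by Euclidean distance between centred log2 CPM, were *Zfp606* (0.0172) and *Stk3* (0.0202) for *Tcf4*, and *Tubb2b* (0.0351) and *Gm49172* (0.0396) for *Id2*. For *Id3* they were *Arsg* (0.0749), with a log2 fold change of -0.86 that was not called (edgeR adjusted p = 0.149), and *Sdc1* (0.0792), with -0.81 (edgeR adjusted p = 0.00813). Within a distance of 0.1 lay 43 genes for *Tcf4*, 16 for *Id2* and 5 for *Id3*. With 4 libraries in 2 groups such likeness mostly reflects an equal fold change.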
